A study of Rattus norvegicus with 13 samples.

Results

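Hypothalamic transcripts were compared between male Sprague-Dawley rats whose high-fat diet held safflower oil, a source of the omega-6 linoleic acid (5 arrays), and rats whose high-fat diet held flaxseed oil, a source of the omega-3 alpha-linolenic acid (4 arrays). Both oils supplied 35% of energy, so the kind of oil differed at an equal fat content. These 9 arrays, chosen by their diet labels and by no measured value, are part of a series of 13. The other 4 came from rats on a low-fat diet with 16% of energy from soybean oil, and they entered the fit through the shared estimate of the spread between arrays. All rats arrived at 6 to 7 weeks of age, had free access to their diet for 2 months, and the hypothalamus was dissected at 14 to 15 weeks of age. No genotype, drug or surgery is named in the labels, and the remaining ingredients of the diets are not given there. The labels do not say that each array held RNA of a separate rat, so the p-values measure the spread between arrays, which may be technical.

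Linoleic and alpha-linolenic acid cannot be made by mammals and compete for the same desaturases and elongases, which turn the first into arachidonic acid and the second into the long omega-3 fats that brain membranes hold. Arachidonic acid is the source of most prostaglandins and leukotrienes. The hypothalamus reads energy state through arcuate neurons that drive feeding with neuropeptide Y and agouti-related peptide or restrain it with peptides cut from proopiomelanocortin. It also holds myelinated tracts, whose oligodendrocytes are heavy users of fatty acids and of cholesterol made within the brain.

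Signals were deposited as log2 values, 1 per transcript cluster and array. Clusters annotated with exactly 1 gene symbol gave 22093 genes, and the 16033 genes with a mean signal of at least 6.58 were tested with limma, with p-values adjusted over all of them. Changes are safflower minus flaxseed on the log2 scale. No gene passed an adjusted p of 0.05 on the deposited values (0%), and none passed after the signals of the named genes were quantile-normalized. The smallest adjusted p was 0.246 in limma on the deposited values and 0.32 after quantile normalization. At an unadjusted limma p under 0.05 there were 2480 genes (15.5% of those tested), 1406 with a higher mean in the safflower group (8.77%) and 1074 with a lower one (6.7%). A log2 change above 0 was found in 50.8% of all tested genes, and in 46.6% after quantile normalization. Quantile normalization left 2020 such genes (12.6%), 982 higher (6.12%) and 1038 lower (6.47%). Centring each array on the median of the named genes instead gave 79.5% higher calls among the unadjusted ones, against 56.7% in the deposited values, 48.6% after quantile normalization and 53.1% after cyclic loess. Counts at an unadjusted p under 0.05 below therefore describe groups of genes and call none of them. The median gene had a standard error of 0.0775 and a 95% half-width of 0.165 on the log2 scale. Intervals printed below are 95% intervals of single genes from limma, not adjusted for the number of genes. Since RNA came from whole tissue, fewer cells of a type and less RNA per cell cannot be told apart in any result below.

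Signals were high enough to be tested for 23 of 25 listed transcription factors of hypothalamic nuclei and 28 of 33 listed feeding peptides. The same held for 14 of 16 listed skeletal muscle genes, 17 of 20 listed genes of thalamus, striatum and cortex, and 16033 of all 22093 genes. These counts therefore cannot check the labelled tissue. Replicates of the same diet were not equally alike. Flaxseed replicate 1 correlated with the mean of the safflower arrays at 0.982 and with the mean of the other flaxseed arrays at 0.981, across genes within these arrays. Safflower replicate 4 correlated at 0.986 with the other safflower arrays and at 0.993 with the flaxseed arrays. On the first principal component of the 9 arrays, safflower replicates 1, 3 and 5 scored 15.19, 12.73 and 15.90, while safflower replicate 2 scored -0.15 and safflower replicate 4 scored -12.24. The flaxseed arrays scored 2.75, -9.95, -12.50 and -11.73 in replicate order, so that safflower replicate 4 lay among them. Flaxseed replicate 1 stood alone on the second component at -22.96.

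**Figure D1:**
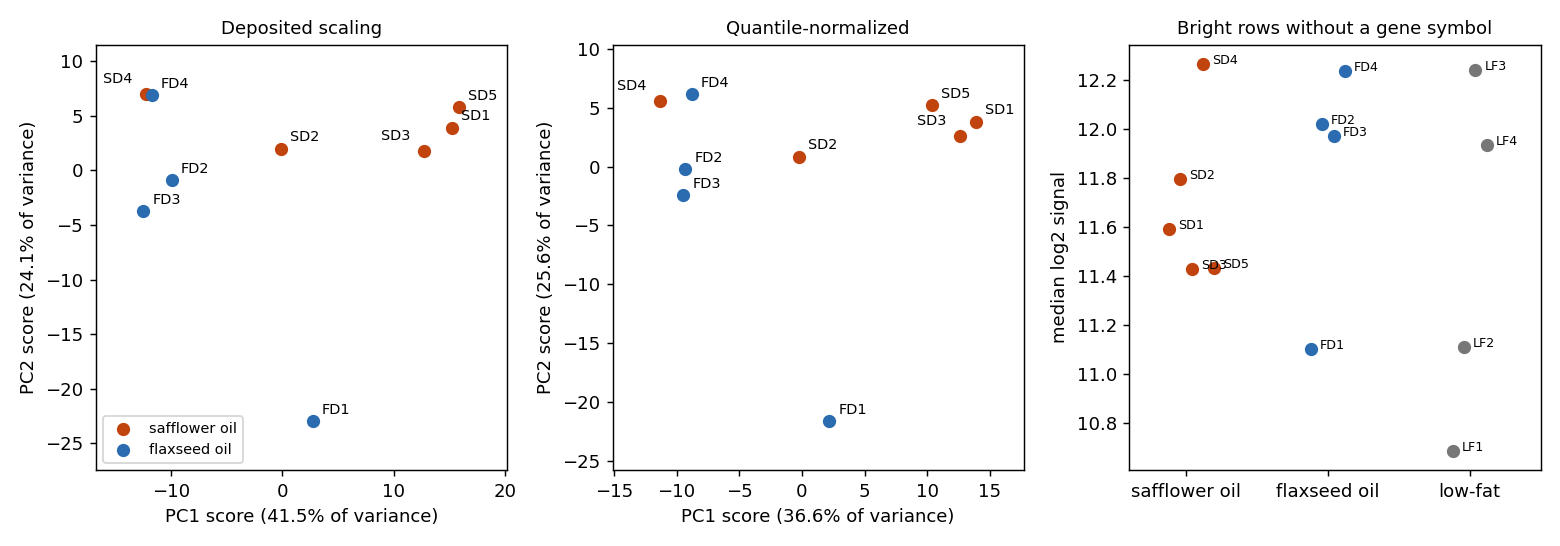
Principal component scores of the 5 safflower (SD) and 4 flaxseed (FD) arrays in deposited and quantile-normalized values, and, on the right, the median log2 signal of the bright transcript clusters without a gene symbol on each array of the 3 diets (LF, low-fat). In both scalings SD4 lies beside FD4 and FD1 lies apart from all others.

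The arrays also differed in scale. Tested genes had an interquartile range of 1.58 ± 0.06 on the safflower arrays (SD, n = 5) and 1.46 ± 0.05 on the flaxseed arrays (SD, n = 4), with an exact two-sided permutation p of 0.0317 (adjusted p = 0.0476 over 3 array summaries). The median of 1128 olfactory receptor genes, which brain tissue hardly uses, was 4.75 ± 0.04 on the safflower arrays (SD, n = 5) and 4.87 ± 0.05 on the flaxseed arrays (SD, n = 4), with no overlap and an exact permutation p of 0.0159, the smallest that 126 splits allow (adjusted p = 0.0476). Dim genes tended to lie lower, and bright genes higher, in the safflower group. The median log2 change was -0.0982 in the dimmest of 10 equal bins of the tested genes and 0.1103 in the brightest. After quantile normalization these medians were -0.0133 and 0.005. Of 9398 genes with a mean signal of at least 7.86, 1208 were higher and 220 lower at an unadjusted limma p under 0.05. The shares of all tested genes printed beside the lists below are not matched for signal. A set of 2364 bright clusters without a gene symbol, with array medians of 11.43 to 12.27 in the safflower group and 11.1 to 12.24 in the flaxseed group, varied more between arrays (median SD 0.501) than 522 genes of like brightness (0.176). What these clusters measure was not tested.

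**Figure D2:**
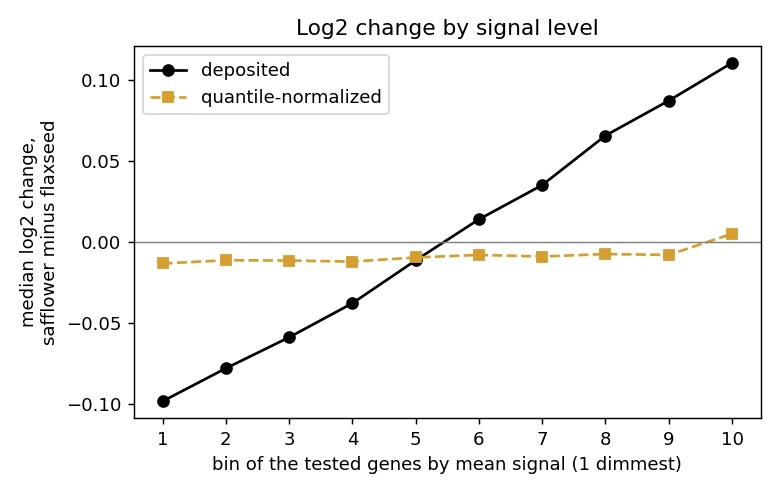
Median log2 change, safflower minus flaxseed, in 10 equal bins of the 16033 tested genes ordered by mean signal. The deposited values run from -0.0982 in the dimmest bin to 0.1103 in the brightest, and the quantile-normalized values stay between -0.0133 and 0.005.

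Among feeding and growth-hormone peptides most means were lower in the safflower group. Of 28 peptide genes tested, 20 had a lower and 8 a higher mean, and 11 were lower at an unadjusted p under 0.05 with none higher, against 6.7% and 8.77% of all tested genes. The median log2 change was -0.12, against 0.0027 over all genes. After quantile normalization 22 were lower, 12 of them at an unadjusted p under 0.05 (6.47% of all genes), with a median of -0.17. Without safflower replicate 3 the median was -0.08. None passed the adjusted threshold over all arrays. In 5 genes all safflower arrays lay below all flaxseed arrays, against 3.7% of all tested genes, and in none did they all lie above (2.2%).

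Npy encodes neuropeptide Y, a strong stimulant of feeding. Its log2 signal was 9.31, 9.74, 9.14, 9.95 and 9.69 on the safflower arrays, against 10.22, 10.19, 9.98 and 10.25 on the flaxseed arrays. All safflower arrays lay below all flaxseed arrays, with safflower replicate 4 closest to them. The change was -0.60 ± 0.14 (standard error, 95% interval -0.90 to -0.29). Quantile-normalized signals were 9.19, 9.66, 9.05, 9.97 and 9.50 on the safflower arrays, against 10.13, 10.19, 10.04 and 10.29 on the flaxseed arrays, again without overlap (log2 change -0.69). The low-fat arrays averaged 9.75 ± 0.20 (SD, n = 4), between the diets.

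Agrp encodes agouti-related peptide, which blocks melanocortin receptors and is made in the same arcuate neurons as Npy. Signals were 6.88, 6.99, 6.84, 6.87 and 6.59 on the safflower arrays, against 7.56, 7.17, 7.28 and 7.07 on the flaxseed arrays. The groups did not overlap, and safflower replicate 5 was the lowest array. The log2 change was -0.44 ± 0.10 (standard error, 95% interval -0.64 to -0.23) and -0.35 after quantile normalization. Agrp is among the dim genes, whose median change was below 0 in the deposited values.

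Pomc, the precursor of the peptides that restrain feeding, had 7.81, 7.95, 7.93, 8.23 and 7.49 on the safflower arrays, against 9.40, 8.45, 8.22 and 8.23 on the flaxseed arrays. Flaxseed replicate 1 lay far above all other arrays, and safflower replicate 4 reached the level of flaxseed replicates 3 and 4. The log2 change was -0.69 ± 0.20 over all arrays (adjusted p = 0.246, limma) and -0.42 without flaxseed replicate 1. Both the appetite-stimulating and the appetite-restraining peptide genes thus had lower safflower means.

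Ghrh, the hypothalamic releaser of growth hormone, had 7.59, 7.91, 7.97, 7.99 and 7.60 on the safflower arrays, against 8.24, 8.24, 8.19 and 8.15 on the flaxseed arrays. The 4 flaxseed values were close together and above every safflower value (log2 change -0.40 ± 0.09, 95% interval -0.58 to -0.21). Sst encodes somatostatin, which inhibits growth hormone release. It ran from 9.61 to 10.39 over the safflower arrays and from 10.13 to 10.98 over the flaxseed arrays, where only flaxseed replicate 4 fell within the safflower range (log2 change -0.50, adjusted p = 0.247, limma). Npvf, the precursor of RFamide peptides that act on the gonadotropin axis, had 7.59, 7.79, 7.79, 7.98 and 7.14 on the safflower arrays, against 8.73, 8.20, 8.04 and 8.24 on the flaxseed arrays. Here too the groups did not overlap (log2 change -0.64, 95% interval -1.03 to -0.25). Nmu, Cartpt, Gal, Galp and Prlh made up the rest of the 11, with log2 changes of -0.39, -0.39, -0.34, -0.42 and -0.18.

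**Figure D3:**
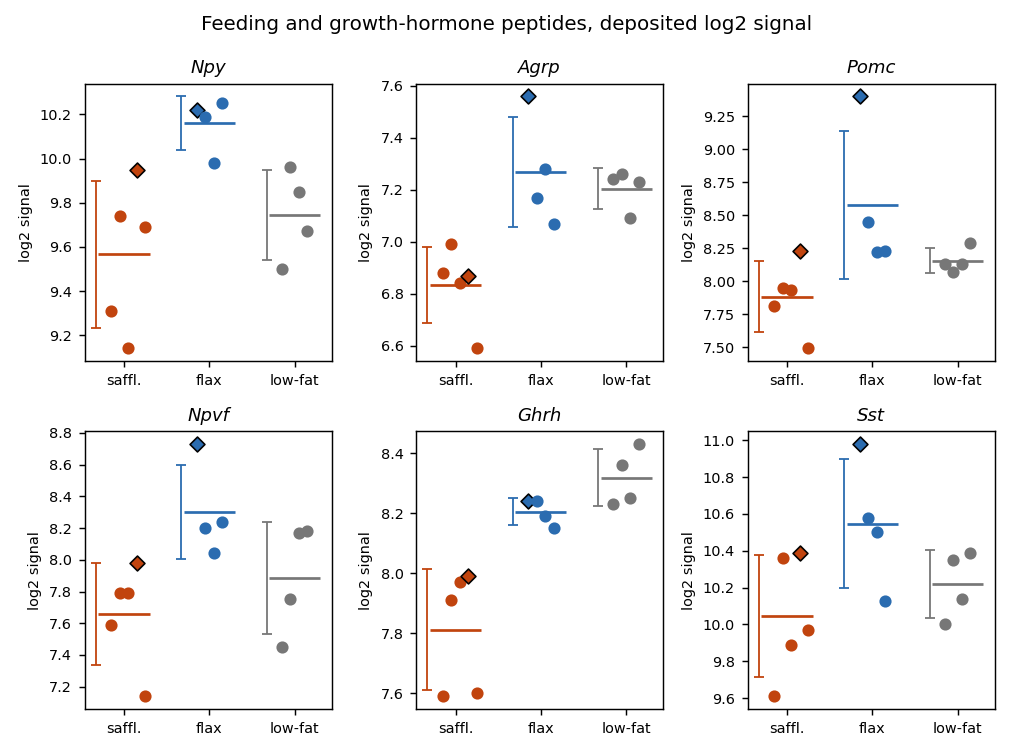
Deposited log2 signal of 6 peptide genes on each safflower, flaxseed and low-fat array. Horizontal lines are group means, vertical bars span 1 SD either side, and black-edged diamonds mark safflower replicate 4 and flaxseed replicate 1. Npy, Agrp, Npvf and Ghrh show no overlap between safflower and flaxseed arrays.

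Lists of neighbouring tissue and of nucleus identity also had mostly lower safflower means. Of 19 tanycyte, ependymal and choroid plexus genes, 18 had a lower safflower mean, 9 at an unadjusted p under 0.05 (6.7% of all genes), and the median log2 change was -0.18 (-0.12 after quantile normalization). Leaving out flaxseed replicate 1 gave a median of -0.11 and 5 higher means among the 19. The mean signal of that list ran from 7.53 to 7.74 over the safflower arrays and from 7.70 to 8.06 over the flaxseed arrays. Ttr, the thyroxine carrier that choroid plexus secretes, had 7.39, 7.27, 7.33, 7.36 and 6.99 on the safflower arrays, against 7.73, 7.55, 7.66 and 7.53 on the flaxseed arrays, without overlap (log2 change -0.35, 95% interval -0.52 to -0.18). Scn7a, a sodium-sensing channel, was the lowest member at -0.63, and Otx2, a choroid plexus transcription factor, the highest at 0.18.

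Among 23 nucleus factors 15 had a lower mean (median -0.11, and -0.06 without flaxseed replicate 1), and 4 of them had an unadjusted p under 0.05 (6.7% of all genes). After quantile normalization 7 were lower and 2 higher at that p (6.47% and 6.12% of all genes). Named outside the naming rule, Nr5a1, which marks the ventromedial nucleus, had a change of -0.20. Six6 and Tbx3, factors of the ventral hypothalamus and also outside the rule, had -0.23 and -0.35. Other members went the other way: 8 of the 23 had a higher mean. After quantile normalization 2 members were higher and 1 lower without overlap, against 329 and 454 of all 16033 genes. Fezf1, another ventromedial factor, was the lowest at -0.82 and Lhx9 the highest at 0.19. Fezf1 had 7.89, 9.37, 8.0, 8.96 and 7.08 on the safflower arrays, against 10.25, 8.87, 8.54 and 8.67 on the flaxseed arrays. The diets overlapped, since safflower replicates 2 and 4 reached the flaxseed range.

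Of 4 pituitary genes tested all had a lower mean. Cga, the common alpha subunit of pituitary glycoprotein hormones, had 7.56, 8.26, 10.52, 10.25 and 7.47 on the safflower arrays, against 10.64, 10.72, 10.43 and 11.05 on the flaxseed arrays. Safflower replicates 1, 2 and 5 were far below all others, and safflower replicate 3 lay just above flaxseed replicate 3. Its log2 change of -1.90 ± 0.55 was the lowest of all genes tested (adjusted p = 0.246, limma). The part of such tissue in the peptide values was not tested.

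Receptors of the feeding peptides showed no common direction. Of 20 tested, 10 had a higher safflower mean and the median was 0.015. At an unadjusted p under 0.05, 2 were higher and 2 lower, against 8.77% and 6.7% of all genes. Without flaxseed replicate 1 the median was 0.12 with 15 higher means, and after quantile normalization it was -0.03 with 8 higher means. The serotonin receptor Htr2c, which acts on Pomc neurons, had 9.97, 9.65, 9.99, 9.64 and 10.15 on the safflower arrays, against 9.36, 9.63, 9.52 and 9.59 on the flaxseed arrays (log2 change 0.36, 95% interval 0.11 to 0.60). The groups were separated by a narrow gap that closed after quantile normalization. Ntsr1, a neurotensin receptor, had a change of 0.46, and the ghrelin receptor Ghsr had -0.45. For Ghsr the 8.43 of flaxseed replicate 1 lay well above 7.68, 7.54 and 7.51 on the other flaxseed arrays, and the change was -0.24 without it.

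Genes of oligodendrocytes, the cells that form myelin, had mostly higher means in the safflower group. All 16 tested myelin structure genes were higher, 11 at an unadjusted p under 0.05 (8.77% of all genes), and the median of their log2 changes was 0.38. After quantile normalization 15 were higher, 7 at that p (6.12% of all genes), with a median of 0.28. The median was 0.29 without flaxseed replicate 1, 0.46 without safflower replicate 4 and 0.15 in quantile-normalized values without flaxseed replicate 1. None passed the adjusted threshold in these fits.

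Mag encodes myelin-associated glycoprotein, which holds the innermost myelin layer to the axon. It had 10.28, 9.92, 10.24, 9.84 and 10.53 on the safflower arrays, against 9.27, 9.75, 9.67 and 9.70 on the flaxseed arrays. The groups did not overlap, with safflower replicate 4 the lowest of its diet and flaxseed replicate 1 far below the other flaxseed arrays. The log2 change was 0.57 ± 0.15 (standard error, 95% interval 0.25 to 0.89). Quantile-normalized, Mag had 10.11, 9.84, 10.12, 9.85 and 10.34 on the safflower arrays, against 9.18, 9.75, 9.72 and 9.73 on the flaxseed arrays, still apart (log2 change 0.46). Only Mag among the 16 was apart in both scalings, against 0.786% of all genes that were higher in this way.

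Opalin, a membrane protein of oligodendrocyte paranodes, had 9.42, 8.91, 9.49, 8.91 and 9.64 on the safflower arrays, against 8.0, 9.08, 8.83 and 8.83 on the flaxseed arrays. Safflower replicates 2 and 4 lay within the flaxseed range (log2 change 0.59, and 0.36 without flaxseed replicate 1). Cnp, an enzyme of uncompacted myelin, had 10.79, 10.22, 10.75, 10.03 and 10.82 on the safflower arrays, against 9.78, 10.14, 10.08 and 10.04 on the flaxseed arrays. As in Opalin, safflower replicates 1, 3 and 5 were high and replicate 4 lay with the flaxseed arrays (log2 change 0.51, 95% interval 0.15 to 0.87). Pllp, Nfasc and Omg had changes of 0.46, 0.32 and 0.23. Mbp, which compacts the myelin sheath, had 9.22 ± 0.11 on the safflower arrays (SD, n = 5) and 9.07 ± 0.22 on the flaxseed arrays (SD, n = 4), a difference within the spread of the arrays.

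The sequences below show where CTGGCAC, a core of the motif of the oligodendrocyte factor MYRF, stands upstream of myelin genes whose means lay higher. The windows were read from RefSeq promoters of assembly GRCr8 (250 bases before to 50 after the gene start) and are printed along the gene's own strand. CTGGCAC and its reverse complement are in capitals, and positions count back from the gene start.
Mag, chr1:95291122-95291148, minus strand, 94 bases upstream: caggcggcccCTGGCACccagggggca
Opalin, chr1:249858191-249858217, minus strand, 17 bases upstream: cagacctacaGTGCCAGtgagagagaa
Mal, chr3:135341533-135341559, minus strand, 126 bases upstream: ttttagggctGTGCCAGaggtgattca
Cnp, chr10:86011370-86011396, plus strand, 124 bases upstream: cagctgcttcCTGGCACccaggtttcg
On either strand, 4 of 14 myelin structure promoters with an entry held this motif, and 1265 of 27457 promoters in the table did (4.61%). The match is a description of letters and shows no binding. Myrf itself had a log2 change of 0.36 (adjusted p = 0.257, limma), which is 0.26 after quantile normalization.

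Other oligodendrocyte lists lay in the same direction. Of 13 myelin lipid genes 12 were higher, 5 at an unadjusted p under 0.05 (8.77% of all genes), with a median of 0.14. Of 30 oligodendrocyte factors 28 were higher, 13 at that p (median 0.24). After quantile normalization these lists had 3 and 8 higher at that p (6.12% of all genes), with medians of 0.11 and 0.16. Of 13 precursor genes 11 were higher, 2 at that p, with a median of 0.14 that became 0.06 after quantile normalization or without flaxseed replicate 1. Enpp2 encodes autotaxin, which makes lysophosphatidic acid. It had 11.32, 10.74, 11.23, 10.44 and 11.11 on the safflower arrays, against 9.95, 10.47, 10.40 and 10.45 on the flaxseed arrays, and only safflower replicate 4 reached the flaxseed range (log2 change 0.65 ± 0.16, 95% interval 0.31 to 0.99). Tmem88b, a membrane protein of oligodendrocytes, had a change of 0.70, Apod, a lipid-binding lipocalin, 0.35, and Cers2, which makes the very long ceramides of myelin, 0.25. Ugt8 and Fa2h, enzymes of galactolipid synthesis, had 0.61 and 0.38.

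**Figure D4:**
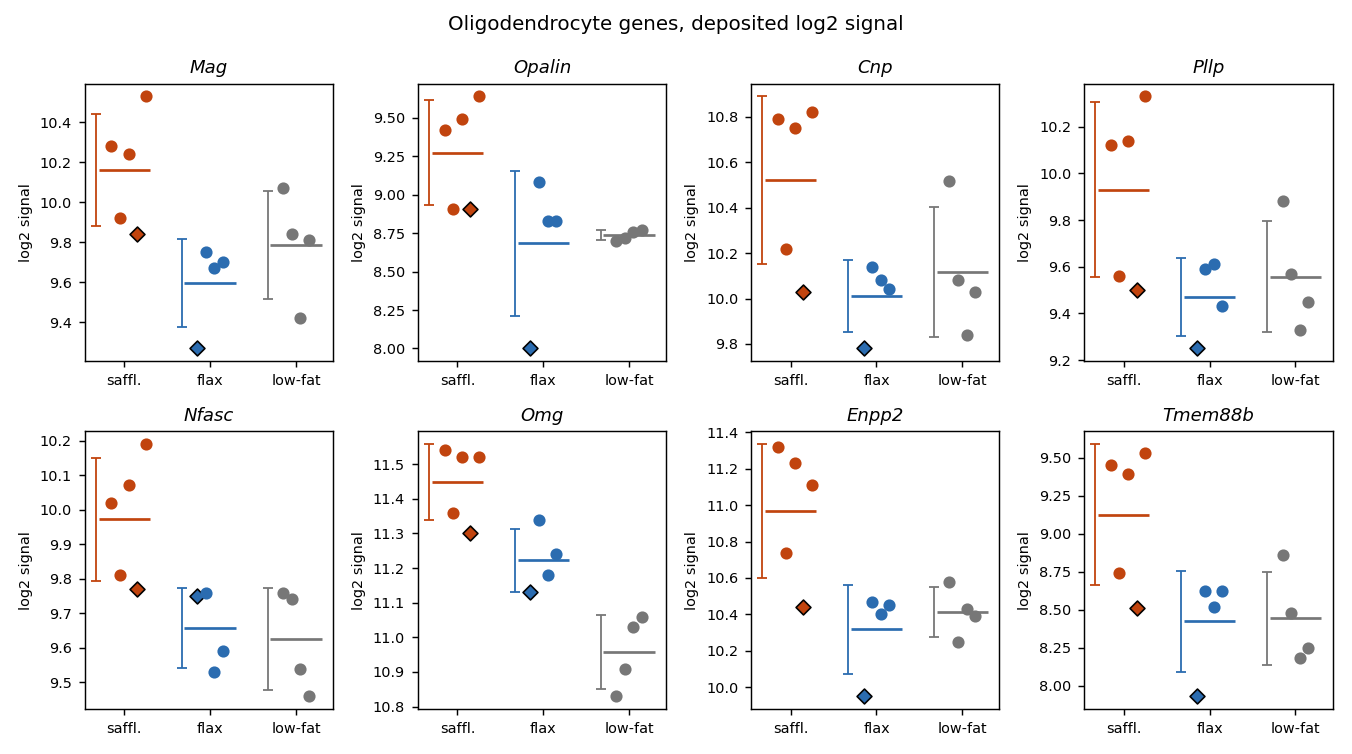
Deposited log2 signal of 8 oligodendrocyte genes on each safflower, flaxseed and low-fat array. Horizontal lines are group means, vertical bars span 1 SD either side, and black-edged diamonds mark safflower replicate 4 and flaxseed replicate 1. In most panels safflower replicates 1, 3 and 5 lie above all flaxseed arrays, safflower replicates 2 and 4 lie near them, and flaxseed replicate 1 is the lowest flaxseed array except for Nfasc.

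Markers of neurons and vessels lay higher with the myelin genes. All 14 general neuron genes had a higher safflower mean, 9 at an unadjusted p under 0.05 (8.77% of all genes), with a median of 0.30. After quantile normalization 13 were higher, 4 at that p (6.12% of all genes), with a median of 0.19. List means ran from 10.76 to 11.26 over the safflower arrays and from 10.73 to 10.76 over the flaxseed arrays. The brightest bin of all tested genes, with a median signal of 10.2, had a median change of 0.1103 in the deposited values. Nefh, the heavy neurofilament of large axons, had 10.79, 9.91, 11.37, 9.57 and 10.28 on the safflower arrays, against 9.38, 9.67, 9.56 and 9.72 on the flaxseed arrays (log2 change 0.80). Here the high arrays were again safflower replicates 1, 3 and 5, with replicate 2 just above the flaxseed range. Map2, a dendrite protein, was the lowest neuron gene at 0.06.

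All 15 endothelial and mural genes were higher, 8 at that p (8.77% of all genes). Their median of 0.39 was 0.31 after quantile normalization and 0.25 without flaxseed replicate 3. List means ran from 8.28 to 8.82 over the safflower arrays and from 8.02 to 8.49 over the flaxseed arrays. Smooth muscle actin (Acta2) had 10.49, 9.80, 11.04, 8.41 and 9.76 on the safflower arrays, against 10.36, 8.68, 8.15 and 8.66 on the flaxseed arrays. Its spread within each diet was wider than its log2 change of 0.94, with a standard error of 0.53. Abcb1a, the drug efflux pump of the blood-brain barrier, was apart in both scalings (0.39 in the deposited values and 0.33 after quantile normalization), and the junction protein Cldn5 had 0.09.

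Astrocyte and microglia lists showed little difference. The 17 astrocyte genes had a median of 0.05 that became -0.02 after quantile normalization and 0.11 without flaxseed replicate 1 or without safflower replicate 4, with Sox9 lowest at 0.0047 and Atp1b2 highest at 0.23. The 15 microglia genes had a median of -0.04, from Tyrobp at -0.13 to Laptm5 at 0.18. Of 6 blood genes all had a lower safflower mean (median -0.49, which was -0.76 without flaxseed replicate 1 and -0.29 without flaxseed replicate 4), and list means ran from 9.04 to 9.49 over the safflower arrays and, more widely, from 8.81 to 10.36 over the flaxseed arrays. Alas2, the first enzyme of haem synthesis in red cells, was lowest at -0.79, and Hba-a1, an alpha globin, highest at -0.17. The part of these cell types in the myelin and peptide values was not tested. Medians of the meningeal (10 genes), skeletal muscle (14 genes) and forebrain region (17 genes) lists were 0.12, -0.08 and 0.08. After quantile normalization they were 0.03, 0.0015 and 0.07. The meningeal median was 0.24 without flaxseed replicate 1 and -0.02 without flaxseed replicate 3. Meningeal genes ran from Dcn at -0.13 to Bgn at 0.39. Muscle genes ran from Car3 at -0.26 to Pvalb at 0.59, and forebrain genes from Rgs9 at -0.20 to Slc17a7 at 0.56. For Slc17a7 safflower replicate 5 had 10.13, against 7.44 to 7.95 on the other safflower arrays.

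Lipid enzymes, the direct users of the dietary fats, differed little between the oils, with cholesterol synthesis the clearest. Of 19 cholesterol genes 16 had a higher safflower mean, 8 at an unadjusted p under 0.05 with none lower (8.77% and 6.7% of all genes). The median was 0.16, and 0.12 after quantile normalization, where 6 were higher and 1 lower at that p (6.12% and 6.47% of all genes). Lss encodes lanosterol synthase, which closes the sterol ring. It had 9.26, 9.04, 9.17, 9.11 and 9.26 on the safflower arrays, against 8.90, 8.77, 8.72 and 8.75 on the flaxseed arrays. There was no overlap, and no array of either diet stood out. The log2 change was 0.38 ± 0.08 (standard error, 95% interval 0.22 to 0.55), a 1.31-fold higher mean. Quantile-normalized values were 9.14, 9.0, 9.08, 9.12 and 9.10 on the safflower arrays, against 8.81, 8.76, 8.76 and 8.80 on the flaxseed arrays (log2 change 0.30).

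Msmo1, a sterol demethylase, ran from 9.75 to 10.16 over the safflower arrays and from 9.59 to 9.76 over the flaxseed arrays. Safflower replicate 4 dipped just below flaxseed replicate 1, and the groups were apart after quantile normalization (log2 changes 0.29 and 0.18). Ebp, Fdft1, Hsd17b7 and Cyp51, further steps of the pathway, had 0.24, 0.23, 0.27 and 0.23. Insig1, which holds the sterol sensor back, had 0.18.

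CCAAT boxes, where NF-Y binds beside the sterol factor SREBP on many such promoters, are shown for the cholesterol genes just described. The box or its reverse complement is in capitals.
Lss, chr20:12118298-12118322, minus strand, 82 bases upstream: tgatgctctgATTGGccgcgctcgc
Msmo1, chr16:29746930-29746954, plus strand, 173 bases upstream: atccgcgcagCCAATggcagacgcc
CCAAT was found on either strand in 13 of 16 cholesterol promoters with an entry, and in 37.7% of all 27457 promoters. The sterol element TCACNCCAC was in 0 of the 16, and in 1.13% of all. These are matches of letters within the windows and say nothing of binding.

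Desaturases and elongases had 16 of 17 means higher in the safflower group, but only 10 after quantile normalization. In each scaling 2 genes were higher at an unadjusted p under 0.05, against 8.77% of all genes as deposited and 6.12% after quantile normalization. The median of 0.10 became 0.04 after quantile normalization. Elovl7, an elongase of saturated chains found in oligodendrocytes, had 8.86, 8.20, 8.80, 8.40 and 9.02 on the safflower arrays, against 7.89, 8.55, 8.13 and 8.34 on the flaxseed arrays (log2 change 0.43). Elovl7 also belongs to the myelin lipid list above, and safflower replicates 1, 3 and 5 were its highest arrays. Elovl4, which makes the very long polyunsaturated fats, had 0.17, and Fads6, a desaturase family member, 0.20 (95% interval -0.001 to 0.41).

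Among 19 genes of fatty acid activation and transport 15 were higher, 4 at an unadjusted p under 0.05 (8.77% of all genes), with a median of 0.12. After quantile normalization 13 were higher, 2 at that p (6.12% of all genes), with a median of 0.04. Acsl4, which prefers arachidonic acid, had 9.39, 9.33, 9.28, 9.22 and 9.34 on the safflower arrays, against 9.02, 9.03, 9.07 and 9.26 on the flaxseed arrays. Flaxseed replicate 4 alone reached the safflower range (log2 change 0.22, 95% interval 0.07 to 0.36, and 0.13 after quantile normalization). The lipoprotein receptor Vldlr had 0.24 and Acsl5, another acyl-CoA synthetase, 0.18.

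Phospholipid remodelling, oxidation and lipogenesis had both directions. Agpat5 and Agpat4, acyltransferases of phosphatidic acid synthesis, had 0.26 and 0.37, and the phospholipase Pnpla8 had 0.17. Ppargc1a, a co-activator of mitochondrial genes, had 9.33, 9.13, 9.32, 9.03 and 9.29 on the safflower arrays, against 8.67, 9.05, 9.01 and 8.97 on the flaxseed arrays (log2 change 0.29, 95% interval 0.12 to 0.47). Flaxseed replicate 1 was far below the others, and only safflower replicate 4 overlapped with the flaxseed arrays. Ucp2, a mitochondrial carrier of the inner membrane, had -0.37, and Hadhb, a subunit of the trifunctional enzyme of beta-oxidation, 0.21. Of 29 oxidation genes 15 were higher (median 0.01). The lipogenic regulator Mlxipl had -0.17, acetyl-CoA carboxylase Acaca 0.17 and the lipid droplet protein Plin3 -0.20.

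Enzymes and receptors of eicosanoids and endocannabinoids, for which the omega-6 fats are the main source, did not lean one way. Of 30 tested, 15 had a higher mean (median 0.02). At an unadjusted p under 0.05, 2 were higher and 2 lower, against 8.77% and 6.7% of all genes. Alox15, a lipoxygenase that acts on both fat families, had 7.04, 7.40, 7.06, 7.06 and 7.28 on the safflower arrays, against 6.93, 7.61, 7.76 and 8.36 on the flaxseed arrays. Flaxseed replicate 1 was the lowest of all 9 and the other 3 flaxseed arrays were the highest (log2 change -0.50, and -0.74 without flaxseed replicate 1). The prostacyclin receptor Ptgir had -0.20, and Abhd12, which breaks down monoacylglycerols and lysophosphatidylserine, 0.18.

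Immune lists differed by small amounts that depended on flaxseed replicate 1. Of 20 inflammatory genes 14 had a lower mean, 3 at an unadjusted p under 0.05 (6.7% of all genes), with a median of -0.04. Leaving out flaxseed replicate 1 gave a median of 0.0038 and 10 of 20 higher means. After quantile normalization the median was -0.02, with 1 gene lower and 1 higher at that p (6.47% and 6.12% of all genes). The cytokine Il1b had 6.76, 6.65, 6.77, 6.80 and 6.54 on the safflower arrays, against 6.85, 7.07, 7.04 and 7.01 on the flaxseed arrays. There was no overlap in the deposited values, but flaxseed replicate 1 lay within the safflower range after quantile normalization (log2 changes -0.29 and -0.20), and the signals are close to the filter. The chemokine Ccl5 and the iron-binding lipocalin Lcn2 had -0.20 and -0.19. Of 22 interferon and antigen presentation genes 19 were lower, 3 at that p (median -0.11, and -0.04 after quantile normalization or without flaxseed replicate 1). Irf7, the driver of type I interferon genes, had -0.24, the class II chain RT1-Da -0.41 and the class I light chain B2m -0.13. For RT1-Da the 8.27 of flaxseed replicate 1 stood above 7.47, 7.21 and 7.41 on the other flaxseed arrays.

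Synaptic and channel genes had mostly higher means in the safflower group. Of 24 glutamate and GABA genes 23 were higher, 10 at an unadjusted p under 0.05 (8.77% of all genes), with a median of 0.18. After quantile normalization 17 were higher, 6 at that p (6.12% of all genes), with a median of 0.09. The means of this list ran from 10.27 to 10.48 over the safflower arrays, and the brightest bin of all tested genes had a median change of 0.1103 in the deposited values. All 19 potassium and sodium channel genes were higher, 10 at that p (median 0.18). After quantile normalization 17 were higher, 7 at that p (6.12% of all genes, median 0.14). Gabrb2, a beta subunit of the GABA-A receptor, had 10.93, 10.71, 10.75, 10.44 and 10.88 on the safflower arrays, against 9.96, 10.35, 10.28 and 10.45 on the flaxseed arrays. Only safflower replicate 4 and flaxseed replicate 4 met (log2 change 0.48 ± 0.11, 95% interval 0.25 to 0.72). Gria3, an AMPA receptor subunit, and Syt1, the calcium sensor of vesicle release, had 0.31 and 0.32.

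Kcna2, a delayed-rectifier channel of axons, had 9.67, 9.60, 9.78, 9.33 and 9.71 on the safflower arrays, against 9.04, 9.26, 9.12 and 9.19 on the flaxseed arrays. It did not overlap in either scaling (log2 changes 0.46 and 0.36). Kcnc1 and Kcnc2, channels of fast-spiking neurons, had 0.40 and 0.60. For Kcnc2 flaxseed replicate 4, at 9.56, lay with the safflower arrays.

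The 10 genes with the smallest p in each direction were chosen by that p, and 5 of these 20 belong to a list (Lss, Agrp, Ghrh, Ttr and Il1b). Slc24a2, a potassium-dependent sodium-calcium exchanger of neurons, had 11.01, 11.02, 10.98, 10.70 and 11.26 on the safflower arrays, against 9.85, 10.46, 10.31 and 10.60 on the flaxseed arrays. The diets did not overlap, with safflower replicate 4 and flaxseed replicate 4 nearest each other. The change was 0.69 ± 0.14 (standard error, 95% interval 0.40 to 0.98, adjusted p = 0.246) and 0.58 after quantile normalization, where the values were 10.85, 10.91, 10.86, 10.73 and 11.09 on the safflower arrays, against 9.77, 10.47, 10.34 and 10.65 on the flaxseed arrays.

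Cacng2 encodes stargazin, which carries AMPA receptors to the synapse. It had 10.42, 10.37, 10.39, 10.20 and 10.30 on the safflower arrays, against 9.90, 10.02, 9.90 and 10.10 on the flaxseed arrays. This was the smallest unadjusted p among the named genes (log2 change 0.36, 95% interval 0.22 to 0.50), yet safflower replicate 5 and flaxseed replicate 4 crossed after quantile normalization (0.24). St8sia6, a sialyltransferase, had 7.77, 7.63, 7.89, 7.35 and 7.63 on the safflower arrays, against 6.96, 7.19, 7.13 and 7.16 on the flaxseed arrays. It was apart in both scalings, with changes of 0.54 and 0.57.

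Cadps, which primes dense-core vesicles for peptide release, had 10.61, 10.49, 10.63, 10.34 and 10.61 on the safflower arrays, against 10.03, 10.24, 10.02 and 10.22 on the flaxseed arrays, without overlap in either scaling (log2 change 0.41, 95% interval 0.24 to 0.57, and 0.29 after quantile normalization). The endocytosis adaptor Reps2 had 9.27, 9.0, 9.17, 8.85 and 9.30 on the safflower arrays, against 8.41, 8.50, 8.68 and 8.76 on the flaxseed arrays (log2 change 0.53). In both genes safflower replicate 4 was the lowest of its diet and stayed above the flaxseed arrays. Synj1, a phosphatase of vesicle recycling, had 0.28, Far2, which reduces fatty acyl-CoA to alcohols, 0.52, Pla2g7, which inactivates platelet-activating factor, 0.45 and the guidance protein Sema6d 0.44.

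In the lower direction Clxn encodes calaxin, a calcium sensor of motile cilia. It had 8.11, 8.05, 7.89, 7.94 and 7.84 on the safflower arrays, against 8.80, 8.51, 8.37 and 8.41 on the flaxseed arrays, apart in both scalings (log2 change -0.56 ± 0.11, 95% interval -0.78 to -0.33). Motile cilia in this region belong to ependymal cells, the group described above. Ptprcap, a partner of the leukocyte phosphatase CD45, had -0.36, the potassium channel Kcnk16 -0.26 and the tachykinin receptor Tacr2 -0.30.

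Both microRNA genes among these were clusters at the precursor locus, so the signal does not separate the mature arms. The mature sequences are printed, from RefSeq on GRCr8, because their seeds (bases 2 to 8, in capitals) define which targets each arm could pair with.
rno-miR-194-5p, chr1:212994038-212994059: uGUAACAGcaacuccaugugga
rno-miR-194-3p, chr1:212994074-212994094: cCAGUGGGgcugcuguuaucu
rno-miR-188-5p, chrX:17919595-17919615: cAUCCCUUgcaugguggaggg
rno-miR-188-3p, chrX:17919634-17919653: cUCCCACAugcaggguuugc
No seed is shared among the arms. Mir194-2 had 6.59, 6.62, 6.58, 6.56 and 6.39 on the safflower arrays, against 6.79, 6.85, 6.98 and 6.91 on the flaxseed arrays. Mir188 had 6.63, 6.69, 6.92, 6.98 and 6.69 on the safflower arrays, against 7.05, 7.09, 7.13 and 7.22 on the flaxseed arrays. Both were lower without overlap in the deposited values, at log2 changes of -0.33 and -0.34. Both are dim, and after quantile normalization Mir188 overlapped (-0.26) while Mir194-2 did not (-0.24).

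Translation and energy genes differed in how they depended on the scaling. Of 70 cytosolic ribosomal protein genes 60 had a lower safflower mean, and 3 had a higher one after quantile normalization. At an unadjusted p under 0.05, 6 were lower in the deposited values (6.7% of all genes) and 25 after quantile normalization (6.47%). The medians were -0.06 and -0.13, and 0.05 with median centring on all clusters. Rpl12, a protein of the large subunit, had 8.54, 8.51, 8.43, 8.55 and 8.49 on the safflower arrays, against 8.79, 8.75, 8.74 and 8.62 on the flaxseed arrays. It did not overlap in either scaling (log2 changes -0.22 and -0.26), and Rpl15 had -0.18. Of 62 respiratory chain genes 49 were higher in the deposited values (median 0.07) and 30 after quantile normalization (median -0.01). Ndufa9 of complex I and Sdha of complex II had 0.17 and 0.15, and 0.07 and 0.05 after quantile normalization.

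Activity and stress lists had small medians that depended on the scaling. Medians of immediate early (17 genes), circadian (19 genes), corticosteroid-responsive (14 genes), heat shock and unfolded protein (23 genes) and antioxidant (28 genes) lists were 0.0011, 0.04, 0.04, 0.09 and 0.0047, and 0.04, -0.01, -0.01, -0.0002 and -0.05 after quantile normalization. The activity-induced Nr4a2 and Dusp1 had changes of 0.32 and 0.36, the clock repressors Bhlhe41 and Nr1d1 0.19 and 0.19, and the mineralocorticoid receptor Nr3c2 and the metallothionein Mt2A 0.12 and -0.17. The unfolded protein sensors Eif2ak3 and Atf6 had 0.19 and 0.20. Glutathione peroxidase Gpx1 had 10.46, 10.38, 10.52, 10.33 and 10.44 on the safflower arrays, against 10.61, 10.67, 10.52 and 10.61 on the flaxseed arrays. It was lower with a narrow gap in the deposited values and a clearer one after quantile normalization (log2 changes -0.18, with a 95% interval of -0.29 to -0.06, and -0.29). Gstp1, a glutathione transferase, had 0.17.

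**Figure D5:**
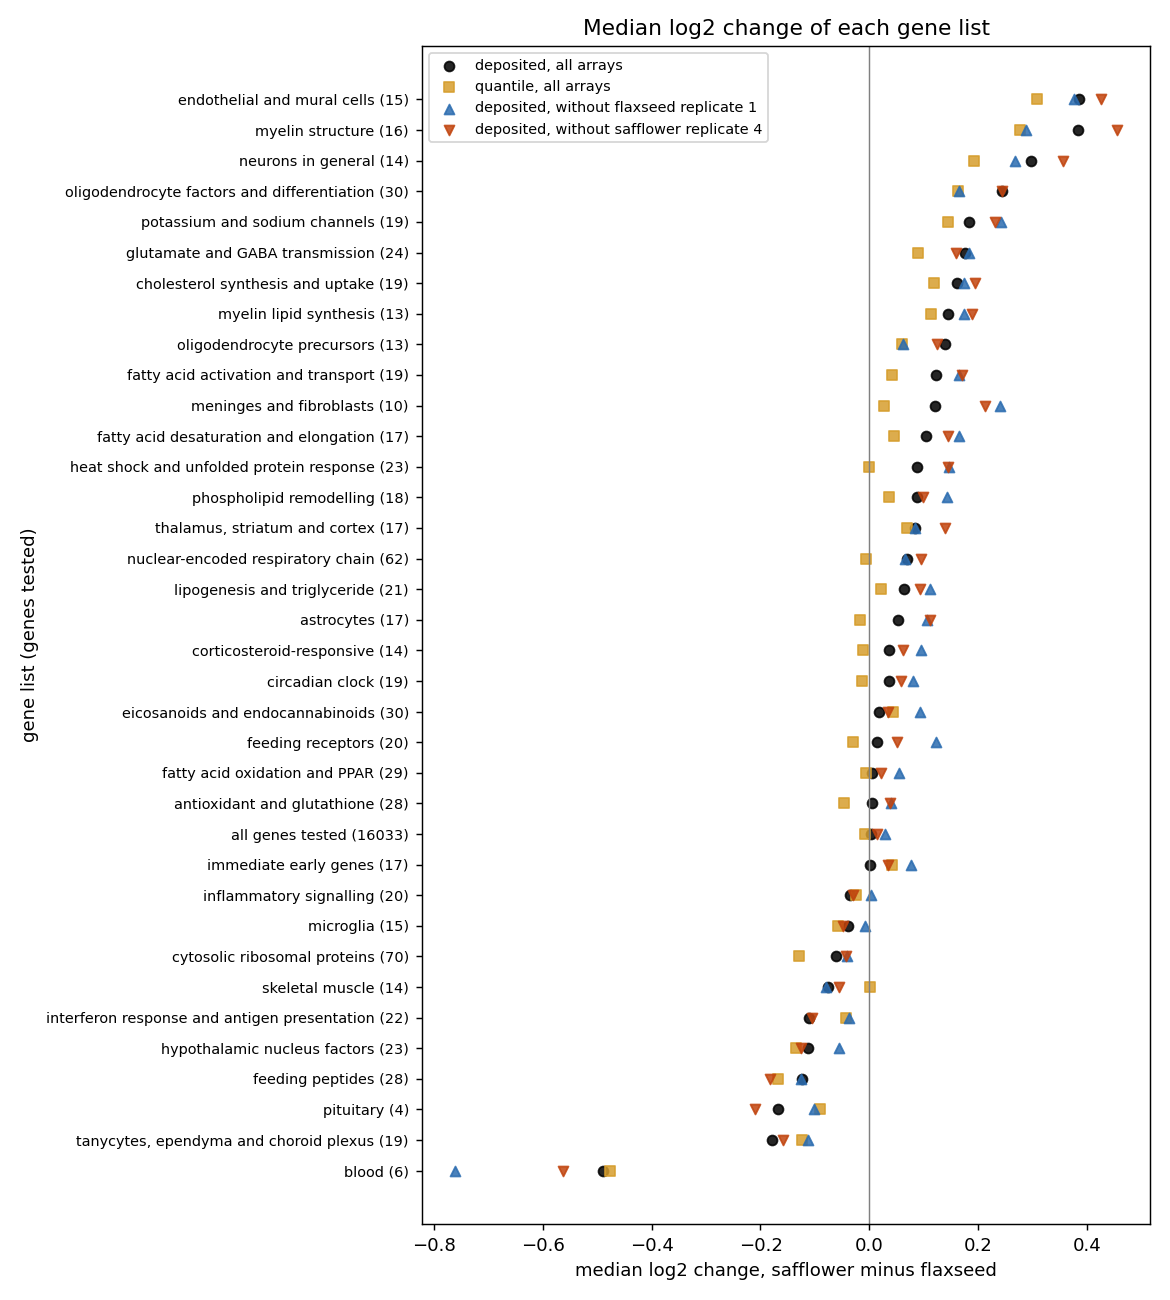
Median log2 change of each gene list (number of tested genes in brackets) in deposited and quantile-normalized values of all arrays, and in deposited values without flaxseed replicate 1 or without safflower replicate 4. Endothelial, myelin structure and neuron lists lie farthest to the right and the blood list farthest to the left in all 4.

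The number of calls depended on which arrays were included, on their weights and on the scaling. With all 13 arrays kept, limma's array weights gave 4667 genes past the adjusted threshold (29.1% of those tested). Leaving out safflower replicate 4 gave 90 genes past an adjusted limma p of 0.05 (0.561% of those tested), 77 higher and 13 lower in the safflower group. Leaving out flaxseed replicate 1 alone gave 0, with 2708 at an unadjusted p under 0.05, and leaving out both gave 171 (1.07%), 132 higher and 39 lower. The 65 genes called in both of these fits were 72.2% of the 90 and 38.0% of the 171. With quantile-normalized values, leaving out either array gave 0 genes. Both arrays were singled out by how they resembled the other diet or stood alone, so these calls rest on that choice and on the deposited scaling.

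Of the 90, 11 belonged to the lists, which held 723 of the 16033 genes tested. Without safflower replicate 4, Npy fell by 0.69 (adjusted p = 0.0466, limma) and Ghrh fell by 0.44 (adjusted p = 0.0494). Enpp2 rose by 0.78, Gabrb2 by 0.56 and Kcna2 by 0.54, each with an adjusted p of 0.0464. The cholesterol genes Lss, Msmo1 and Fdft1 rose by 0.40, 0.35 and 0.31, the endothelial adhesion protein Pecam1 by 0.62, the vesicle fusion protein Snap25 by 0.35 and Nr4a2 by 0.46. No gene of the myelin structure list passed in this fit, where Mag had an adjusted p of 0.0596. Without both arrays Pomc also passed, at -0.51 (adjusted p = 0.0462, limma), and Agrp had an adjusted p of 0.0601. Leaving out flaxseed replicate 4 gave 3 genes, Kitlg, Ccdc77 and Kcnc2, with changes of 0.61, 0.71 and 0.79, named here after their values were seen (0.0187% of those tested).

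The highest and lowest members of the cell type and tissue lists aside, the rule named 82 genes. All 82 kept the sign of their change in both scalings and in each of the 32 fits tried that held them. The fit with the stricter filter on low values left out 19 of them as too dim. Among the members set aside, Sox9 (0.0047) and Map2 (0.06) took the other sign after quantile normalization (-0.10 and -0.06). Of the 82, 60 had an unadjusted p under 0.05 in both scalings, against 4.42% of all genes higher and 3.05% lower. In 26 there was no overlap in either scaling, against 0.786% higher and 0.998% lower. Since most were chosen for a small p in the deposited values, the counts describe them and support nothing further.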

How the data were processed

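The authors deposited log2 signals, which per the submitters' processing notes came from Affymetrix Expression Console and RMA (background correction, normalization and probe summary). Labelled cRNA was made from 100 ng of total RNA per the labels' protocols. No source used here gives the build of the 70580 clusters. Of these, 1738 were controls, 23446 had 1 symbol, 505 several and 44891 none. Gene IDs of 22077 were matched to RefSeq (GRCr8). Of several clusters per gene (1182 genes) the one with the highest mean was used. Genes were tested if their mean reached the median over all clusters. Limma 3.58.1 in R 4.3.3 (lmFit, eBayes) fitted 3 diet means to 13 arrays (10 residual degrees of freedom), two-sided, with Benjamini-Hochberg adjustment over 16033 genes. Quantile normalization used the named genes. Intervals rest on the number of arrays, which limits the precision.

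The comparison, the members and the 35 gene lists (829 symbols, 723 tested) were chosen with earlier results of these data known. Genes were named by a rule: the 10 smallest p in each direction (no gene passed), the 10 smallest among the oligodendrocyte lists, 6 feeding peptides, 3 or 2 of each other pathway list, and the highest and lowest member of other cell type and tissue lists. Further list members, among them Nr5a1, Six6 and Tbx3, were named outside this rule. Provisional symbols, like-genes, pseudogenes and chemosensory receptors were not named. In data simulated with this design, 80% of 100 genes changed by 0.5 and 96% of 100 changed by 1 (log2) were called. There were 10 false calls among the unchanged genes of the 16033 simulated. Each value was drawn independently with the spread of its gene, so deviations shared by genes of an array were absent. Over all arrays Slc24a2, at 0.69, and Npy, at -0.60, were not called. Their standard errors of 0.1351 and 0.1423 exceed the 0.0775 of the median gene, so these rates are not their own. Whether these rates hold for arrays that differ in scale and in likeness to their own diet, as these do, was not tested.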

Additional observations from a re-analysis of the deposited data

Results flagged for a closer look

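In 286 sets of replicates examined (the 2 diets for each named gene, list mean and array summary), 14 arrays lay outside the others of their diet by Dixon's 95% criterion (4.9%), and chance alone flags about 1 in 20. Flaxseed replicate 1 accounted for 7 of them. It was low for Enpp2 (9.95, others 10.40 to 10.47), Mag (9.27, others 9.67 to 9.75), Tmem88b (7.93, others 8.52 to 8.62) and Pvalb (7.17, others 7.80 to 7.83), and high for Laptm5 (9.19, others 8.78 to 8.83) and for the mean of the astrocyte list (10.38, others 10.15 to 10.18) and of the immediate early gene list (8.13, others 7.90 to 7.91). Safflower replicate 5 accounted for 4, being low for Mir194-2 (6.39, others 6.56 to 6.62) and high for Rpl15 (8.41, others 8.24 to 8.28), Nr3c2 (8.37, others 8.07 to 8.13) and Slc17a7 (10.13, others 7.44 to 7.95), a glutamate transporter of cortex and thalamus. Flaxseed replicate 2 was high for Gstp1 (9.79, others 9.73 to 9.73), flaxseed replicate 4 was low for the mean of the respiratory chain list (9.19, others 9.24 to 9.25), and flaxseed replicate 3 was high for the olfactory receptor median (4.95, others 4.84 to 4.85). No cause was tested.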

How the results depend on the processing

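The 82 named genes, without the highest and lowest members of cell type and tissue lists, kept their direction in each of the 32 fits tried that held them. The stricter filter left out 19. Of 35 list medians 16 took the other sign in at least 1 fit (82 of 1085 list medians computed). Of these, 9 moved by more than the spread between replicates, in 7 lists, 5 of the 9 with median centring on all clusters. The number of genes past the adjusted limma p was 0 over all arrays and 0 to 90 when 1 array was left out, with 90 without safflower replicate 4 and 3 without flaxseed replicate 4. It was 171 without safflower replicate 4 and flaxseed replicate 1, and 4667 with limma's array weights. These gave safflower replicate 4 a weight of 0.455 and flaxseed replicate 1 a weight of 0.385, and the lowest weight, 0.244, to low-fat replicate 3. The highest weights were those of flaxseed replicate 2 (3.807), low-fat replicate 2 (3.082) and safflower replicates 1 (2.948) and 3 (2.536). The number of genes was 26 for an unadjusted p under 0.05 with a fold of at least 1.5. With the level of the bright unnamed clusters as a covariate, chosen after seeing the data, it was 1 (Lss), and 1 (Znf729l-ps1) when quantile-normalized values were used.

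Genes with an unadjusted p under 0.05 numbered 2480 over all arrays and 1368 to 3385 when 1 array was left out. They numbered 1428 with the stricter filter on low values, 4056 without both arrays, 1558 with the replicate number as a block, 6753 with array weights and 4448 with the bright clusters as covariate. Scalings set on all clusters, chosen after seeing the data, gave 1406 after quantile normalization and 3888 after median centring, which moved the median change of all genes to 0.1143 and made 98.1% of these calls higher. Genes without overlap numbered 945, or 1037 to 2548 with 1 array left out, with the lowest count without safflower replicate 5 and the highest without flaxseed replicate 4. They were 1430 with no filter, 434 with the stricter filter and 4683 without both arrays. In quantile-normalized values they were 1675 without flaxseed replicate 1 and 1757 without safflower replicate 4. Safflower values were higher in 37.2% of the non-overlapping genes as deposited and in 74.7% after median centring.

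The myelin structure median of 0.38 was 0.15, and that of oligodendrocyte factors (0.24) was 0.069, in quantile-normalized values without flaxseed replicate 1. The feeding peptide median of -0.12 was -0.23 in quantile-normalized values without safflower replicate 4 and -0.0125 after centring on all clusters, which gave 0.25 for precursors (0.14). Causes were not tested. Replicate numbers did not pair the arrays: deviations of same-numbered safflower and flaxseed arrays correlated at 0.195, -0.152, -0.083 and 0.204, and under the block 0 genes passed. Dim genes near the filter and the 505 clusters with several symbols limit what can be said of some members.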
